A study of Mus musculus with 21 samples.

Results

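Open promoters of the E12.5 mouse heart endothelium that carry no GATA4 peak numbered 6178, out of 13378 open promoters and 136513 open regions. Each is a merged region with a peak in both ATAC lists of sorted endothelial cells and with its midpoint within 1 kb of a transcription start. None of the 6 GATA4 peak lists overlapped it, and at least 1 of the 6 ATAC lists from Gata4 ko or Gata4 het embryos had a peak there. The set therefore held 46.2% of the open promoters and 4.53% of all merged regions. These peak calls chose the members, so the openness of the regions and their lack of GATA4 are part of the definition. The other 7200 open promoters, chosen in the same way but overlapped by a GATA4 peak, are the comparison used throughout.

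The study profiled ventricles at E12.5 to compare GATA4 occupancy in the endothelial and the cardiomyocyte lineage. ATAC, in which a transposase cuts accessible DNA, was run on 3 Gata4 ko and 3 Gata4 het libraries of 20000 cells each. These cells were sorted by the Rosa26mTmG reporter after Cdh5CreER had been activated with 1 mg of tamoxifen at E9.5, in both genotypes alike. The labels give the genotype only as ko or het of G4, and do not give the alleles. A further 2 ATAC libraries of 40000 cells and 2 RNA libraries of 60000 cells came from endothelial cells (EC) sorted by a Rosa26fsTRAP reporter that Tie2Cre had activated. RNA from 3 samples labelled E12.5 cardiomyocytes (CM) served as the other cell type, and the sources used here do not give how those cells were isolated. GATA4 was mapped by bioChIP, the pull-down of a biotinylated factor with streptavidin, in 3 libraries with Tie2-Cre activated biotinylation and 3 with Tnnt2-Cre activated biotinylation, each from 15 to 20 pooled ventricles. Tie2-Cre is active in endothelium and endocardium and also in blood cells, Cdh5CreER in endothelial cells, and Tnnt2-Cre in cardiomyocytes. The labels do not say that replicates are of separate litters, and p-values then reflect how these samples scatter, which may be technical.

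A promoter is the DNA around a transcription start where RNA polymerase II and the general factors assemble, and in active or poised genes it is kept free of nucleosomes, which ATAC reads as a peak. GATA4 is a zinc-finger transcription factor that recognises GATA letters and is needed in the heart for both muscle and endocardium, where it acts with other factors at promoters and at distant enhancers. Endothelial identity is maintained in large part by ETS and SOX factors, while housekeeping promoters are commonly rich in CpG and in letters read by Sp, NF-Y and ETS factors.

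Promoter letters are given for 7 genes whose starts lie inside member regions, each 300 bases long from 250 before the RefSeq start to 50 after it, 5′ to 3′ on the gene's strand, in GRCm38.p6, the RefSeq form of mm10. Desi2 (chr1:178187167-178187466, plus strand) and Hspa2 (chr12:76404120-76404419, plus strand) lie in the member regions with the highest ATAC fold. Kdr (chr5:75978406-75978705, minus strand) stands for endothelial surface genes, Mrpl24 (chr3:87919294-87919593, plus strand) for mitochondrial ribosomal proteins and Ccnd3 (chr17:47504801-47505100, plus strand) for the cell cycle. Tpm1 (chr9:67049164-67049463, minus strand) stands for the sarcomere and Psmd1 (chr1:86064369-86064668, plus strand) for the proteasome. Capitals mark every match, on either strand, to any of 4 motifs. The motif AGATAA is the one that GATA factors commonly recognise, and the motif GGAAG is the short core that ETS factors share. The box GGGCGG is a GC box, the letters of Sp and Klf factors that recur in housekeeping promoters. The box CCAAT is the letters of NF-Y.
Desi2: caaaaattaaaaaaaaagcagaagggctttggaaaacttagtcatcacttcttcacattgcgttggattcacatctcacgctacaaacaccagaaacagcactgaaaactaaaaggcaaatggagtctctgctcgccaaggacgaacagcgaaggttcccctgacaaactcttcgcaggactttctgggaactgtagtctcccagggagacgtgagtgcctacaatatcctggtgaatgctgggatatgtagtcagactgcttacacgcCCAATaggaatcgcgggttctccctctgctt
Hspa2: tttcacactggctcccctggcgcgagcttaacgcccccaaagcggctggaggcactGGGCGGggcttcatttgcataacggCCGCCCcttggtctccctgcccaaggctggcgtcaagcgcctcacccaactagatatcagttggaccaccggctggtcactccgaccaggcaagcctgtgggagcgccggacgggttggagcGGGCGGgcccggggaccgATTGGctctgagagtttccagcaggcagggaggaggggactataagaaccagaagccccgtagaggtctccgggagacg
Kdr: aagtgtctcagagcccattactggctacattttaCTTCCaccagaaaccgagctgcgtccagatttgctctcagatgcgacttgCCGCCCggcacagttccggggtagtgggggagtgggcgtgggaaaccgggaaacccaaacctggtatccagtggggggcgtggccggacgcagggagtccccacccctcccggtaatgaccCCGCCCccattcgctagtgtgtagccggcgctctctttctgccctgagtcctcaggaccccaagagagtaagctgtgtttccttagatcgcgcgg
Mrpl24: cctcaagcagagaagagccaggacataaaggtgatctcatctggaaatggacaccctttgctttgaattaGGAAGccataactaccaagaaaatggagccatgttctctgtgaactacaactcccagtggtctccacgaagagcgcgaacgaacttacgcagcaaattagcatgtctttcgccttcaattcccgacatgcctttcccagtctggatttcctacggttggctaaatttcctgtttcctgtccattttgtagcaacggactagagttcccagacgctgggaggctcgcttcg
Ccnd3: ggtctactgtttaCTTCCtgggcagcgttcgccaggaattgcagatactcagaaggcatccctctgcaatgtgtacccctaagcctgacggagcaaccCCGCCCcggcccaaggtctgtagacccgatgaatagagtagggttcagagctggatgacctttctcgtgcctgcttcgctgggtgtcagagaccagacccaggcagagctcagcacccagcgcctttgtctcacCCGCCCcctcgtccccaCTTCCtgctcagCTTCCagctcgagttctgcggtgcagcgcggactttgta
Tpm1: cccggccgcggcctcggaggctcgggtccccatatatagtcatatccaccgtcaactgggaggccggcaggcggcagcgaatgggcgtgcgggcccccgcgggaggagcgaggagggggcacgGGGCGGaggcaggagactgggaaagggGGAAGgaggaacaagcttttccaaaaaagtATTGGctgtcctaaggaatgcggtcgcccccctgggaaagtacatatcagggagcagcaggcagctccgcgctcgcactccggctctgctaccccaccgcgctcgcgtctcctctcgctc
Psmd1: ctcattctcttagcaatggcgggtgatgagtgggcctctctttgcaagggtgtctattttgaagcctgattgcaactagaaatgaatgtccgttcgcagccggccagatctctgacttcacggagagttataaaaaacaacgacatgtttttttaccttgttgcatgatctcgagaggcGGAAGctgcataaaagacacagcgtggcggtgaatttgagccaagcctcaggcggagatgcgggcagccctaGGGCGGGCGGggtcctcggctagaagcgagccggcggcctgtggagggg
AGATAA occurred in 0 of the 7 promoters on either strand. The Kdr promoter held GC boxes 166 and 45 bp upstream of the start and an ETS core 216 bp upstream, and the Ccnd3 promoter held ETS cores 237 bp and 1 bp upstream and 11 bp downstream. The Psmd1 promoter had 2 overlapping GC boxes 1 and 5 bp downstream of its start, and the Hspa2 promoter had 3 GC boxes and an NF-Y box 29 bp upstream. Desi2 carried only an NF-Y box, 19 bp downstream. These matches describe letters in a window and are not measured binding sites.

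The number of members depends on which GATA4 peaks are counted. The GATA4 lists held 17682, 2734 and 25936 peaks for Tie2-Cre replicates 1 to 3, and 22814, 3603 and 30447 peaks for Tnnt2-Cre replicates 1 to 3. Tnnt2-Cre replicate 3, the longest list, overlapped 40.5% of all open promoters, while the 2 shortest lists overlapped 2.46% and 2.92%. Without Tnnt2-Cre replicate 3 the set grew to 7258 promoters, 54.3% of those open. With −log10 q of at least 5 asked of the GATA4 lists alone, 51.5% of open promoters were without a GATA4 peak. The share was 93.5% with every GATA4 list cut to its strongest 2734 peaks and every ATAC list to 55733, a setting that changes both assays at once. Support at the 7200 promoters with GATA4 was also uneven, since 2313 of them (32.1%) had a peak in 1 of the 6 lists and 127 (1.76%) in all 6. A missing peak thus means that none was called in these lists, and does not show that GATA4 was away. Counted in both lineages, 56.4% of the promoters with GATA4 had a peak from Tie2-Cre and from Tnnt2-Cre lists, 16.1% from Tie2-Cre lists alone and 27.5% from Tnnt2-Cre lists alone.

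RNA counts on genes came to 27660790 and 21682362 reads in EC, and to 48393473, 42948614 and 45522886 in CM. Markers matched the labels: 5 endothelial markers summed to 3811 CPM in either EC library, CPM being a gene's reads relative to the library's TMM-scaled total, against 537 to 627 in CM, and 5 cardiomyocyte markers to 169 and 174 CPM in EC, against 15340 to 17920 in CM. Of 6 blood and macrophage markers, 1 was at 0 in EC replicate 2 and in CM replicates 2 and 3, and the sum was 24.9 and 23.4 CPM in EC, against 1218 to 3031 in CM, where Hbb-y, an embryonic globin, made up nearly all of it. Epicardial, fibroblast and mural markers (5) summed to 435 and 426 CPM in EC and to 206 to 215 in CM, but went both ways. Pdgfra averaged 215 CPM in EC, against 40.5 in CM, and Pdgfrb 165 in EC, against 22.1 in CM, and Tcf21 was also higher in EC. Wt1 averaged 8.45 CPM in EC, against 19.2 in CM, and Tbx18 17.1 in EC, against 119 in CM. The part of these other cells in the results below was not tested, and in such bulk samples fewer cells of a type and less RNA per cell cannot be told apart. Gata4 itself, in RNA, stood at 253 and 244 CPM in EC and at 63.5, 76.1 and 87.3 CPM in CM. Its own start region was wide (4618 bp) and had a peak in all 3 ko lists, but peaks do not check the ko label, and no RNA of ko or het embryos was analysed here.

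Member regions were narrower and weaker than open promoters with GATA4. Their median width was 1334 bp (quartiles 860 and 1884), against 1734 bp with GATA4. A wider region has more room to overlap a GATA4 peak, so the rule itself favours narrow members. Median fold over background was 9.28 in EC replicate 2 and 9.31 in EC replicate 3 for members, against 13.7 and 13.6 for promoters with GATA4. Open regions away from starts and without GATA4, 44348 in number, were weaker still, with a median width of 521 bp and median folds of 4.49 and 4.65. The fold is the authors' value per peak and is used here only to rank peaks within these lists.

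All open promoters were divided into 5 equal bins by their mean fold in EC replicates 2 and 3. Members made up 80.6%, 52.2%, 36.7%, 32.0% and 29.5% of the bins, weakest to strongest. By width the shares were 74.7%, 48.5%, 39.3%, 35.3% and 33.0%, narrowest to widest, a direction that the rule itself favours. The weakest bin ran from a fold of 2.17 to 6.88 and the strongest from 16.3 to 24.9. A GATA4 peak was thus missing most often at weak promoters, yet 788 of the strongest bin were members. The 5 strongest members, all with a peak in 3 of 3 ko and 3 of 3 het lists, lay at Desi2, Hspa2, Mtmr4, Osbpl2 and Mxd4. Desi2, of the desumoylating isopeptidase family, had folds of 25.1 and 24.1 in EC replicates 2 and 3 over chr1:178186679-178188770. Hspa2, a chaperone of the heat shock protein family, had 24.6 and 23.4 over chr12:76403009-76406497. Mtmr4, a phosphoinositide phosphatase, had 24.1 and 23.7 over chr11:87590663-87593543. Osbpl2, an oxysterol-binding protein, had 23.6 and 22.5 over chr2:180118397-180120359, and Mxd4, a MAX partner that represses transcription, 23.6 and 22.2 over chr5:34185790-34188756. All 5 regions contain the start of their gene, so the openness lies over the start itself.

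Chromosome X stood apart in how often open promoters lacked GATA4. On X 340 of 454 open promoters (74.9%) were members, against 5838 of 12924 (45.2%) elsewhere, where single autosomes ran from 37.9% (chromosome 16) to 50% (chromosome 19). Open promoters on X were weaker as a group, with a median fold of 9.86 against 12.2 elsewhere. The gap was there within bins of fold as well: on X 88.2%, 67.7%, 71.3%, 68.8% and 71.4% were members, weakest to strongest, against 80.2%, 51.4%, 35.3%, 30.9% and 29.2% elsewhere. The strongest bin on X holds only 14 promoters. In each of the 6 GATA4 lists the share of open promoters with a peak was lower on X than elsewhere. For Tie2-Cre replicates 1 to 3 it was 9.25%, 1.10% and 12.8% on X, against 22.9%, 2.51% and 35.6% elsewhere. For Tnnt2-Cre replicates 1 to 3 it was 13.4%, 0.661% and 16.3% on X, against 29.9%, 2.99% and 41.3% elsewhere. Peaks of any kind on X made up 0.971% to 1.30% of the GATA4 lists and 1.82% to 1.98% of the ATAC lists. The sources used here do not give the sex of the embryos. Genes of known role at member promoters on X include Taf1, the largest subunit of TFIID, Pgk1, a glycolytic kinase, and Rpl10, a ribosomal protein.

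**Figure D1:**
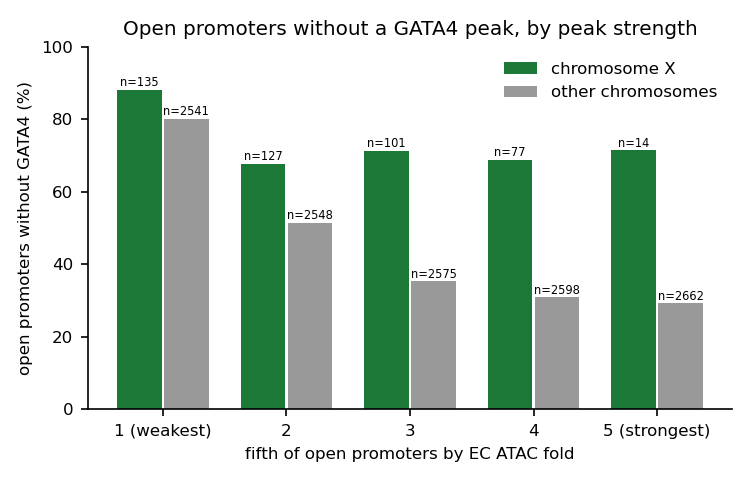
Share of open promoters without a GATA4 peak (y axis, percent, from 0) in 5 equal groups of open promoters ranked by endothelial ATAC fold (x axis, weakest to strongest), for chromosome X (green) and all other chromosomes (grey), with the number of promoters above each bar. Off X the share runs from 80.2% in the weakest group to 29.2% in the strongest, while on X it lies between 67.7% and 88.2% in all 5.

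Member promoters were open in most ko and het libraries, and the means of the genotypes differed by less than the SD over libraries. A peak was present at 90.9%, 91.2% and 82.3% of members in ko replicates 2, 3 and 4, a mean of 88.1% ± 5.08 (SD, n = 3), against 91.6%, 91.5% and 84.8% in het replicates 2, 3 and 4, a mean of 89.3% ± 3.89 (SD, n = 3). Replicate 4 was lowest in either genotype and also had the shortest lists, with 55733 peaks in ko and 67201 in het, and it is what makes the ranges of the genotypes overlap. In replicates 2 and 3 alone, ko lay between 90.9% and 91.2%, below het at 91.5% to 91.6%. The ko share was below that of het at each of the 3 numbers in all 3 classes of region. At each number the ko list was also the shorter. Replicates 2 and 3 held 87496 and 79263 peaks in ko, against 90326 and 82612 in het. The labels do not pair ko with het libraries by number, and the part of list length was not tested. At promoters with GATA4 the means were 98.3% ± 0.849 in ko and 98.7% ± 0.737 in het (SD, n = 3 each). At distal regions without GATA4 they were 63.3% ± 15.2 in ko and 68.5% ± 12.3 in het (SD, n = 3 each). At least 1 ko or het peak was asked for in all 3 classes, which lifts these shares.

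Of the 6178 members, 4658 (75.4%) had a peak in all 6 ko and het lists, and 289 (4.68%) in 1. All 3 ko lists covered 4877 members (78.9%) and all 3 het lists 4999 (80.9%). Among promoters with GATA4, 96.3% were covered by all 6 lists. By bins of fold the gap between the classes was widest in the weakest. There 44.7% of members were in all 3 ko lists and 49.9% in all 3 het lists, against 62.9% and 68.5% of promoters with GATA4. In the 3 strongest bins, members reached 99.1% to 99.6% in ko and 99.0% to 99.8% in het, against 100% in ko and 99.8% to 100% in het with GATA4.

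Few members had a peak in every library of one genotype and in none of the other. A peak in 3 of 3 ko and 0 of 3 het lists was found at 9 members (0.146%). This was near the background of 0.152% of all 80281 open regions, most of which are distal. The reverse, 3 of 3 het and 0 of 3 ko lists, was found at 16 members (0.259%), against a background of 0.405%. Promoters with GATA4 had 0 regions of the first kind and 3 (0.0417%) of the second. Members were weaker than those promoters, and these counts were not matched for fold. With 3 libraries against 3, an exact two-sided test of a region cannot go below p = 0.1, so no region can be called on its own. The 9 regions in ko lists alone lay at Pcdhga2, Slc30a3, Clec1b, Acsl6, Glp1r, Bco2, Plcb2, Pla2g4e and Calcb, all with weak folds of 2.46 to 5.11 in EC. Clec1b, a platelet and myeloid lectin receptor, had the highest EC level of the 9 genes in CPM, with 6.70 and 7.97 CPM in EC, against 3.83, 4.52 and 3.55 CPM in CM. Glp1r, the receptor of glucagon-like peptide 1, had 0 counts in all 5 RNA libraries.

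The 16 regions in het lists alone were also weak, with folds of 2.19 to 7.04, and lay at Nudt10, Gap43, Lrcol1, Tbx5, Rarg, Igsf1, Foxe1, Mogat1, Olfm3, Nipsnap3a, Tmem35, Rnase12, Fbp1, Acsbg1, Trpv3 and Wbscr25. Nudt10, a phosphohydrolase gene on X, had the highest fold of them, 7.04 and 6.66 over chrX:6171979-6173873. The region at Tbx5, a T-box factor of the first heart field, sits at chr5:119834986-119836339 with its midpoint 1000 bp from the start and does not contain the start. Tbx5 RNA stood at 16.5 and 13.95 CPM in EC, against 28.3, 34.2 and 37.8 CPM in CM. Rarg, a retinoic acid receptor, stood at 31.5 and 29.1 CPM in EC, against 2.46, 2.68 and 3.21 CPM in CM, and its region contains the start. RNA was measured in EC and CM that carry no Gata4 genotype label, so these levels say nothing of a change in ko embryos.

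**Figure D2:**
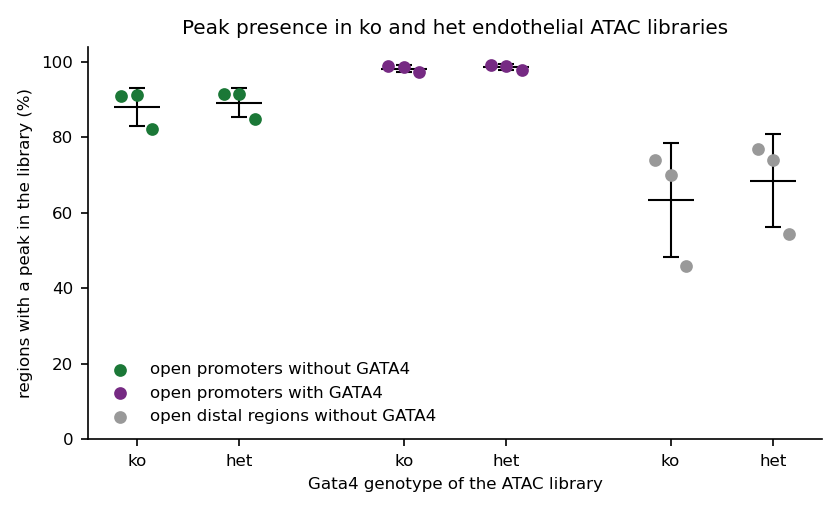
Percent of regions with a peak (y axis, from 0) in each Gata4 ko and het endothelial ATAC library, with dots for the 3 libraries of a genotype and black bars for mean and SD. Members (green) lie between 82.3% and 91.2% in ko and between 84.8% and 91.6% in het, below open promoters with GATA4 (purple) and above distal regions without GATA4 (grey).

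The edges of the rule were close. Just inside the 1 kb limit lay regions at Tbx1 and Erg, both with midpoints 1000 bp from the start, and just outside lay regions at Hsd17b6 and Mir466i, both at 1002 bp. The members nearest to a GATA4 peak lay 19 bp away, at 1700125H03Rik, and 23 bp away, at Nags, the enzyme that makes N-acetylglutamate. The promoters with GATA4 that overlapped a peak least were Astn1, by 4 bp, and Gm6559, by 6 bp. The median distance from a member to the nearest GATA4 peak was 13740 bp. A GATA4 peak lay within 1 kb of 301 members (4.87%) and within 10 kb of 2449 (39.6%). These counts pool the Tie2-Cre and Tnnt2-Cre lists, and the same shares were not taken for other regions.

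Members had fewer starts per region than promoters with GATA4, in counts not matched for width. A start lay inside the region at 89.7% of members, against 97.7% with GATA4, and 8.21% of members had at least 2 starts within 1 kb, against 13.5%. Head-to-head gene pairs, which share 1 open region between diverging starts, made up 354 members (5.73%), against 9.69% with GATA4. The peak summit in EC replicate 2 lay at a median of -30 bp from the start (minus is upstream) at members, against -34 bp with GATA4, and was upstream at 63.0% of members, against 67.0%.

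Genes at member promoters had lower RNA levels than those with GATA4, in both cell types. There were 6478 genes with a member promoter alone, 8110 with a GATA4 promoter alone and 72 with both kinds. The median level in EC, in RPKM, the read count scaled to gene length and library size, was 2.04 and 1.95 in the EC libraries for genes without GATA4, against 8.64 and 8.50 for genes with GATA4. In CM it was 1.90, 1.91 and 1.97 RPKM without GATA4, against 8.49, 8.55 and 8.56 with GATA4. The libraries of a cell type thus lay much closer to each other than the classes did. Genes with no open region at the start had a median of 0 in every library.

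Nearly silent genes were more frequent among them. In EC 1205 genes (18.6%) with member promoters had under 0.1 CPM, against 6.22% with GATA4, while 600 (9.26%) had over 100 CPM, against 16.5%. Levels under 1 CPM in both EC and CM were found for 1932 genes (29.8%), against 10.2%. At matched peak strength the gap was narrower but kept its direction. From the weakest to the strongest bin by fold, the median EC level was 0.0800, 1.44, 6.38, 8.88 and 9.80 RPKM without GATA4, against 0.178, 4.03, 8.59, 10.2 and 13.4 RPKM with GATA4. The share of genes with at least 1 CPM in EC was 30.0%, 65.4%, 85.0%, 89.0% and 90.9% without GATA4, against 39.6%, 77.9%, 90.5%, 92.6% and 92.9%.

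**Figure D3:**
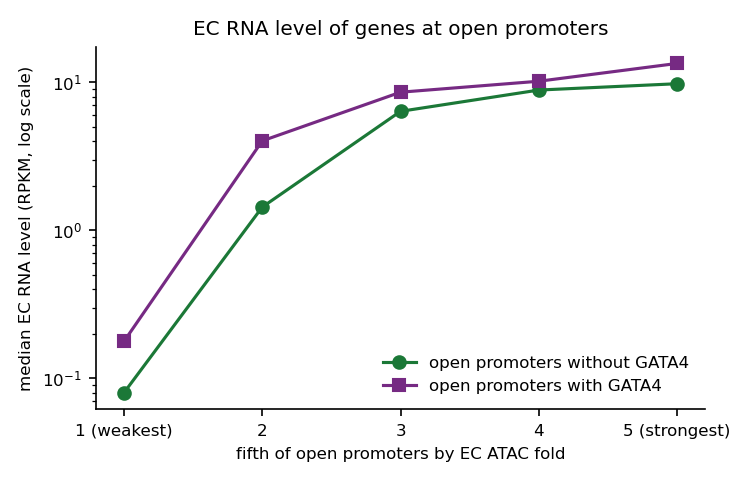
Median EC RNA level (y axis, RPKM, log scale) of genes at open promoters without GATA4 (green circles) and with GATA4 (purple squares), in 5 equal groups of open promoters by EC ATAC fold (x axis, weakest to strongest). Green lies below purple in all 5 groups, by 0.0800 against 0.178 RPKM in the weakest and 9.80 against 13.4 RPKM in the strongest.

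Genes at member promoters differed between EC and CM about as often as all genes did. Of 5147 such genes that passed the count filter, 2039 (39.6%) were higher in EC and 1925 (37.4%) lower by edgeR's quasi-likelihood test with Benjamini-Hochberg adjustment at 0.05, against 37.5% higher and 40.2% lower of all 14851 genes tested. The filter passes a gene that is expressed in either cell type, so silent genes are not among these. Their median log2 fold change, EC over CM, was 0.02, against -0.06 over all genes. Changes of at least 2-fold were found for 1308 (25.4%) higher and 1147 (22.3%) lower, against 18.4% and 18.9% of genes with GATA4. Of tested genes with no open region at the start, 25.05% were higher and 41.3% lower by at least 2-fold. The 2-fold shares over all genes tested were not taken, so no excess at member promoters can be read from these values. There were 289 genes with at least 1 CPM in EC alone and 346 in CM alone. The lists below give the part of this that belongs to known groups, and were drawn up with earlier results of these data known.

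Endothelial genes were found in both classes, and those at member promoters were nearly all higher in EC. Of 24 genes for surface and junction proteins, 8 had a member promoter, 11 a promoter with GATA4 and 1 both. All 9 with a member promoter were higher in EC than in CM (median log2 fold change 2.04). Kdr, the main receptor of VEGF, had 882 and 882 CPM in EC, against 136, 149 and 133 CPM in CM, a log2 fold change of 2.66 ± 0.07 (SE) and an adjusted p of 2.22e-10 by edgeR. Its region, chr5:75977558-75979531, had folds of 12.2 and 11.5 and a peak in all 6 ko and het lists. Eng, an endothelial co-receptor of TGF-beta and BMP9, had 636 and 607 CPM in EC, against 31.2, 36.6 and 36.2 CPM in CM (4.17 ± 0.09, adjusted p = 3.85e-11, edgeR). Tie1, a receptor kinase that partners Tek, had 486 and 463 CPM in EC, against 60.6, 56.2 and 50.1 CPM in CM (3.09 ± 0.09, adjusted p = 2.38e-10, edgeR). No EC library overlapped a CM library for these 3 genes. The share of all genes of which this holds was not taken, and 37.5% of all genes tested were called higher and 40.2% lower in EC. Mmrn2, an endothelial matrix protein at 423 and 392 CPM in EC, against 105.0, 104.8 and 86.7 CPM in CM, had a weak region with a peak in 0 of 3 ko and 1 of 3 het lists. The endothelial surface genes whose open promoter overlapped a GATA4 peak were led by Plvap, Pecam1 and Emcn. Pecam1 and Emcn, both endothelial markers, were also higher in EC (log2 fold changes of 2.65 and 2.22). Here and in the lists below, calls were not counted for genes with GATA4, so directions cannot be compared between the classes.

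Of 24 endothelial transcription factors, 9 had a member promoter, 7 one with GATA4 and 1 both, and all 10 with a member promoter were higher in EC (median log2 fold change 2.88). Their regions had a peak in all 6 ko and het lists at 10 of 10. Ets1 had 539 and 504 CPM in EC, against 97.5, 94.2 and 87.2 CPM in CM (2.49 ± 0.07, adjusted p = 3.61e-10, edgeR). Elk3, an ETS factor of vessel growth, had 359 and 354 CPM in EC, against 32.7, 35.4 and 34.3 CPM in CM (3.39 ± 0.07, adjusted p = 4.01e-11, edgeR). Sox7, a SOX factor of endothelium, had 135 and 139 CPM in EC, against 10.3, 11.4 and 14.3 CPM in CM (3.51 ± 0.12, adjusted p = 8.33e-10, edgeR). Erg, Foxc1, Foxc2, Sox17, Sox18, Etv2 and Etv6 were the others. The factors with GATA4 were Ets2, Epas1, Foxo1, Klf4, Elf1, Hhex and Lyl1, so the ETS family is found in both classes.

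Endocardial genes, which mark the inner lining of the heart, had 11 of 20 with a member promoter and 7 with GATA4. Of the 11, 10 were higher in EC and 1, Cytl1, was lower, with a median log2 fold change of 2.69. Ece1, the enzyme that activates endothelin, had 1507 and 1461 CPM in EC, against 133, 151 and 118 CPM in CM (3.47 ± 0.10, adjusted p = 2.57e-10, edgeR). Ednrb, an endothelin receptor, had 1208 and 1250 CPM in EC, against 246, 259 and 159 CPM in CM (2.47 ± 0.16, adjusted p = 1.45e-07, edgeR). Cdh11, a cadherin of mesenchymal cells, had 1002 and 1011 CPM in EC, against 285, 286 and 231 CPM in CM (1.91 ± 0.09, adjusted p = 1.45e-08, edgeR). The regions of 6 of the 11 genes had a peak in all 6 ko and het lists. Npr3, the clearance receptor of natriuretic peptides, was high in RNA, with 931 and 918 CPM in EC, against 254, 254 and 207 CPM in CM, yet its region had a peak in 1 of 3 ko and 0 of 3 het lists. Has2, the hyaluronan synthase of the cardiac jelly, had 99.9 and 107 CPM in EC, against 7.04, 5.84 and 6.42 CPM in CM, and its region had a peak in 0 of 3 ko and 1 of 3 het lists.

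Cushion mesenchyme genes, which mark the cells that leave the endocardium to form valves, had 11 of 16 with a member promoter and 4 with GATA4. Of the 11, 10 were higher in EC and 1, Cdh2, the cadherin of muscle cell junctions, was lower, with a median log2 fold change of 3.51. Fn1, fibronectin, had 6924 and 6738 CPM in EC, against 608, 662 and 526 CPM in CM (3.51 ± 0.10, adjusted p = 2.68e-10, edgeR). Col1a1, a fibrillar collagen chain, had 264 and 247 CPM in EC, against 42.7, 46.5 and 72.0 CPM in CM (2.25 ± 0.18, adjusted p = 5.73e-07, edgeR). Twist1, a factor of the transition to mesenchyme, had 104 and 100.3 CPM in EC, against 4.81, 5.20 and 5.05 CPM in CM. Zeb2, another such factor, had 169 and 195 CPM in EC, against 114, 125 and 120 CPM in CM (0.60 ± 0.08, adjusted p = 4.98e-05, edgeR), and its region had a peak in 1 of 3 ko and 1 of 3 het lists. Of the 5 epicardial, fibroblast and mural markers above, Pdgfra, Pdgfrb and Tcf21 were higher in EC as most of this list was, and Wt1 and Tbx18 were lower.

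Signalling genes of the endothelium were likewise divided between the classes. In the Notch pathway 7 of 16 genes had a member promoter and 8 had GATA4, and of the 7, 5 were higher and 2, Jag2 and Lfng, lower in EC. Dll4, a Notch ligand of arterial endothelium, had 40.0 and 41.8 CPM in EC, against 4.06, 5.601 and 6.31 CPM in CM, and Notch4 had 71.0 and 66.5 CPM, against 12.7, 12.7 and 15.7 CPM. The receptors Notch1, Notch2 and Notch3 and the targets Hes1, Hey1 and Hey2 had open promoters with GATA4. Of 21 BMP and TGF-beta genes, 6 had a member promoter, 5 of them higher in EC and 1, Bmp7, lower at 2.06 and 1.68 CPM in EC, against 132, 134 and 144 CPM in CM. Bmpr2, the type II BMP receptor, had 291 and 284 CPM in EC, against 155, 166 and 186 CPM in CM, and Smad6, an inhibitory SMAD, 170 and 169 CPM, against 65.9, 61.9 and 55.5 CPM. Of 15 VEGF and angiopoietin genes, 7 had a member promoter. The receptors Kdr, Flt1 and Tie1 and the semaphorin receptor Plxnd1 were higher in EC, while the ligands Vegfa and Vegfb were lower, Vegfa at 24.4 and 22.9 CPM in EC, against 155, 172 and 195 CPM in CM. The ligand Angpt2 had 1.45 and 1.09 CPM in EC, against 1.54, 2.05 and 1.73 CPM in CM, and was not called. Coronary and vascular genes had 6 of 18 with a member promoter, 5 higher in EC, led by Gja4, a gap junction protein of arteries (66.8 and 73.9 CPM in EC, against 3.37, 4.45 and 4.26 CPM in CM), and 1, Apln, lower.

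**Figure D4:**
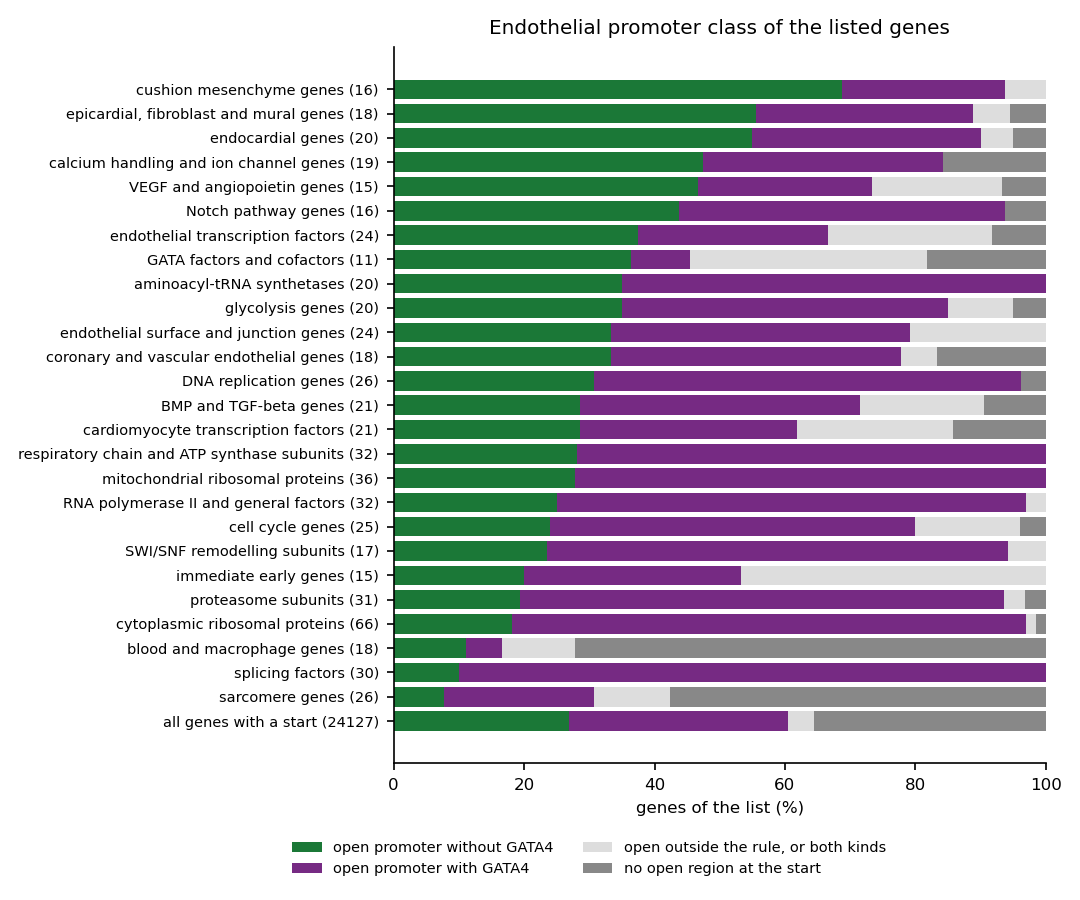
Share of the genes in each of 26 lists (rows, number of genes in brackets, with all 24127 genes with a start in the bottom row) that had an open endothelial promoter without GATA4 (green), with GATA4 (purple), another open start (light grey) or no open region at the start (dark grey), as percent on the x axis. Cushion mesenchyme genes have 11 of 16 in green at the top, and splicing factors and sarcomere genes have the smallest green shares, 3 of 30 and 2 of 26.

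Of 11 genes for GATA factors and their partners, 4 had a member promoter, Gata2, Gata5, Ldb1 and Zfpm2, and 1, Gata3, one with GATA4. Another 4, Gata4 among them, had an open start outside the rule, and 2 had none. The region over the Gata4 start had a GATA4 peak in 1 of 3 Tnnt2-Cre and 0 of 3 Tie2-Cre lists. Gata2, a factor of blood vessels and blood, had 69.7 and 66.5 CPM in EC, against 2.52, 2.61 and 2.51 CPM in CM (4.74 ± 0.10, adjusted p = 4.01e-11, edgeR). Gata5, a factor of endocardium, had 69.6 and 68.4 CPM in EC, against 9.14, 9.95 and 8.37 CPM in CM (2.91 ± 0.10, adjusted p = 7.06e-10, edgeR). Ldb1, a bridging cofactor, had 176 and 195 CPM in EC, against 76.0, 90.9 and 86.0 CPM in CM (1.14 ± 0.09, adjusted p = 5.47e-07, edgeR). Zfpm2, the GATA4 partner known as FOG2, was lower in EC, with 24.8 and 20.2 CPM, against 29.6, 32.1 and 36.5 CPM in CM (-0.54 ± 0.12, adjusted p = 0.00214, edgeR). All 4 regions had a peak in all 6 ko and het lists.

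All 3 tested sarcomere genes with a member promoter were lower in EC than in CM. Of 26 sarcomere genes, 15 had no open region at the start in EC, 2 had a member promoter, 6 one with GATA4 and 1 both. Tpm1, tropomyosin, had 422 and 409 CPM in EC, against 4079, 3735 and 3671 CPM in CM (-3.21 ± 0.09, adjusted p = 2.30e-10, edgeR). Actn2, the sarcomeric actinin, had 16.9 and 16.8 CPM in EC, against 740, 808 and 798 CPM in CM (-5.54 ± 0.09, adjusted p = 1.67e-11, edgeR). Both regions had a peak in all 6 ko and het lists although RNA in EC was a small part of that in CM. Nebl, a nebulin-like Z-disc protein with both kinds of promoter, had 2.02 and 1.63 CPM in EC, against 302, 296 and 299 CPM in CM, and its member region had a peak in 0 of 3 ko and 1 of 3 het lists. The 5 cardiomyocyte markers summed to 169 and 174 CPM in EC, and their part in these levels was not tested.

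Calcium handling and ion channel genes had 9 of 19 with a member promoter and 7 with GATA4, and all 9 were lower in EC (median log2 fold change -4.71). Atp2a2, the calcium pump of the sarcoplasmic reticulum, had 373 and 402 CPM in EC, against 1918, 1952 and 2088 CPM in CM (-2.36 ± 0.08, adjusted p = 1.13e-09, edgeR). Jph2, which ties that membrane to the cell surface, had 4.11 and 3.49 CPM in EC, against 150, 180 and 210 CPM in CM (-5.55 ± 0.18, adjusted p = 5.38e-10, edgeR). Kcnq1, a potassium channel, had 8.58 and 8.92 CPM in EC, against 14.2, 15.9 and 20.0 CPM in CM (-0.93 ± 0.16, adjusted p = 0.000301, edgeR). Among cardiomyocyte transcription factors 6 of 21 had a member promoter and 7 had GATA4. Tbx20, a T-box factor of both muscle and endocardium, had 472 and 458 CPM in EC, against 290, 290 and 348 CPM in CM (0.59 ± 0.09, adjusted p = 0.000115, edgeR). Hand2 had 245 and 248 CPM in EC, against 86.1, 105.2 and 115.4 CPM in CM (1.27 ± 0.11, adjusted p = 9.81e-07, edgeR). Tead1, a partner of YAP, had 137 and 136 CPM in EC, against 117, 113 and 121 CPM in CM (0.22 ± 0.07, adjusted p = 0.0122, edgeR), a call lost without either EC library or without CM replicate 2 (adjusted p of 0.0595 to 0.0726). The other 3, Tbx5, Irx3 and Nkx2-5, were lower in EC.

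**Figure D5:**
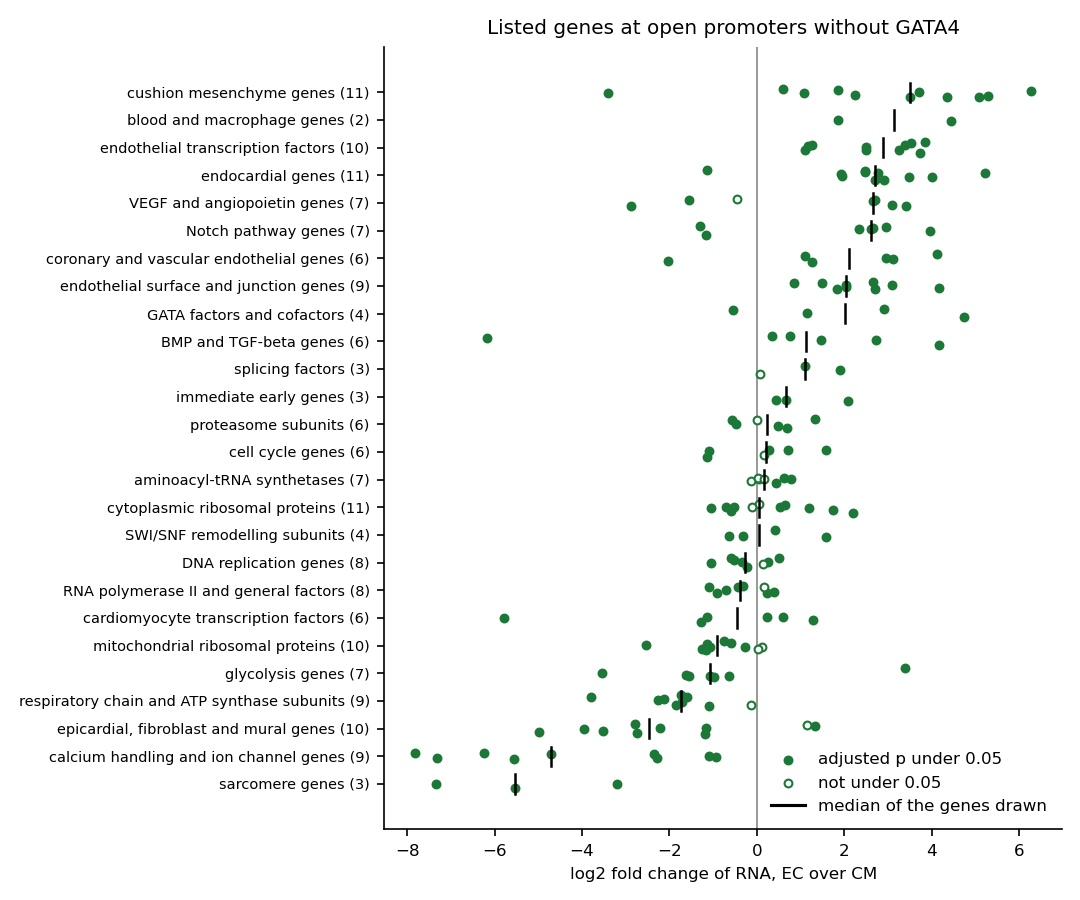
Log2 fold change of RNA, EC over CM (x axis), for each listed gene with a member promoter that passed the count filter (points, with the number per list in brackets), filled where edgeR's adjusted p was under 0.05 and open where it was not, with the list median as a black line. Endothelial, endocardial and cushion lists lie to the right with medians of 2.04 to 3.51, and sarcomere and calcium lists to the left with medians of -5.54 and -4.71.

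Housekeeping genes more often had an open promoter with GATA4 than one without. Of all 24127 genes with a start, 26.9% had a member promoter alone, 33.6% one with GATA4 alone and 35.5% no open region. Genes of 10 to 100 CPM in EC leaned the same way, with 2171 at member promoters and 4291 with GATA4. Over 100 CPM in EC the counts were 600 and 1341. The housekeeping lists were not matched for fold or RNA level, so the part of these was not tested. Of 66 cytoplasmic ribosomal proteins 12 had a member promoter and 52 one with GATA4. The same counts were 10 and 26 of 36 mitochondrial ribosomal proteins, 6 and 23 of 31 proteasome subunits, 3 and 27 of 30 splicing factors, and 8 and 23 of 32 RNA polymerase II and general factors. Aminoacyl-tRNA synthetases had 7 and 13 of 20, cell cycle genes 6 and 14 of 25, DNA replication genes 8 and 17 of 26, SWI/SNF subunits 4 and 12 of 17, respiratory chain genes 9 and 23 of 32, and glycolysis genes 7 and 10 of 20.

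The housekeeping genes that were members differed in either direction between EC and CM, and most of those in energy metabolism were lower in EC. Of 11 cytoplasmic ribosomal genes tested, 5 were higher, 4 lower and 2 not called, with a median log2 fold change of 0.06. Reads of ribosomal protein genes can be shared with processed pseudogenes, so these values are uncertain, and Rpl26 had 0 counts in all 5 libraries. Of 10 mitochondrial ribosomal genes, 8 were lower in EC and 2 not called, with a median of -0.91. Mrpl24 had 34.7 and 38.8 CPM in EC, against 45.5, 42.5 and 44.1 CPM in CM (-0.26 ± 0.09, adjusted p = 0.0176, edgeR), which became 0.111 without EC replicate 1. Psmd1, a scaffold of the proteasome cap, had 339 and 325 CPM in EC, against 334, 345 and 319 CPM in CM, and overlapped. Of 9 respiratory chain genes, 8 were lower in EC and 1, Atp5d, was not called, with a median of -1.74. Atp5b, the catalytic subunit of ATP synthase, had 675 and 660 CPM in EC, against 2391, 2369 and 2422 CPM in CM (-1.84 ± 0.07, adjusted p = 2.89e-09, edgeR). Of 7 glycolysis genes, 6 were lower and 1, Eno1, higher in EC, with a median of -1.08. Ldha had 490 and 463 CPM in EC, against 713, 718 and 799 CPM in CM (-0.64 ± 0.08, adjusted p = 2.23e-05, edgeR), and Pgk1 86.5 and 91.9 CPM, against 187, 175 and 204 CPM.

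Cell cycle and replication genes at member promoters went either way. Ccnd3, cyclin D3, had 258 and 255 CPM in EC, against 148, 151 and 172 CPM in CM (0.71 ± 0.08, adjusted p = 1.09e-05, edgeR), and its region had a peak in 2 of 3 ko and 2 of 3 het lists. Ccnb1, cyclin B1, had 66.6 and 66.6 CPM in EC, against 161, 129 and 134 CPM in CM (-1.09 ± 0.10, adjusted p = 2.36e-06, edgeR). Pcna, the sliding clamp of DNA polymerase, had 130 and 126 CPM in EC, against 270, 266 and 264 CPM in CM (-1.06 ± 0.07, adjusted p = 1.15e-07, edgeR). Mcm2, a subunit of the replicative helicase, had 224 and 227 CPM in EC, against 209, 209 and 198 CPM in CM, and was not called (adjusted p = 0.0852, edgeR). Of 3 immediate early genes with a member promoter, all 3 were higher in EC, including Nr4a1, an orphan nuclear receptor (165 and 153 CPM in EC, against 35.3, 39.4 and 38.1 CPM in CM). Of 18 blood and macrophage genes 2 had a member promoter, Itga2b, the platelet integrin, and Spi1, the PU.1 factor, and of 18 epicardial, fibroblast and mural genes 10 had one, 8 of them lower and 1, Tcf21, higher in EC.

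Among expressed genes at member promoters, with a level of no less than 20 CPM throughout the cell type with more, the greatest differences towards EC were those of Sox9, Sall3, Bgn, Creb3l1 and St8sia2. Sox9, a factor of valve mesenchyme and cartilage, had 163 and 167 CPM in EC, against 2.31, 2.07 and 1.997 CPM in CM (6.27 ± 0.09, adjusted p = 1.67e-11, edgeR). Its region at chr11:112780941-112783149 had a peak in 2 of 3 ko and 3 of 3 het lists. Sall3, a zinc-finger factor, had 66.1 and 56.7 CPM in EC, against 0.999, 1.15 and 0.853 CPM in CM (5.94 ± 0.14, adjusted p = 7.32e-11, edgeR). Bgn, the proteoglycan biglycan, which has both kinds of promoter and lies on X, had 673 and 739 CPM in EC, against 13.7, 15.8 and 14.4 CPM in CM (5.59 ± 0.09, adjusted p = 1.67e-11, edgeR). Creb3l1, a membrane-bound bZIP factor of secretory cells, had a log2 fold change of 5.59 ± 0.17, and St8sia2, a polysialyltransferase, 5.48 ± 0.17.

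The greatest differences towards CM were those of Hist1h2bp, Hist1h2bm, Hist1h2bb, Rprl3 and Kcnj3. Hist1h2bb, a replication-dependent histone H2B gene, had 2.98 and 1.86 CPM in EC, against 807, 938 and 907 CPM in CM, and Hist1h2bm had 0.461 and 1.09 CPM in EC, against 274, 288 and 287 CPM in CM. Hist1h2bp had 0.0355 and 0 CPM in EC, against 38.8, 37.1 and 34.2 CPM in CM, so its fitted fold change is no bound. These histone genes are near-identical copies whose reads can be divided among them, and their mRNAs mostly lack a poly(A) tail. RNA of both cell types is labelled polyadenylated, but the sources used here do not give how CM RNA was prepared, so preparation and cell type cannot be told apart for them, nor for Rprl3, a gene of the RNase P RNA family (0.248 and 0.272 CPM in EC, against 112, 47.7 and 52.2 CPM in CM). Kcnj3, a channel of atrial and nodal cells, had 0.248 and 0.0906 CPM in EC, against 40.5, 44.1 and 38.5 CPM in CM (-7.82 ± 0.23, adjusted p = 2.83e-10, edgeR), and its region, of fold 3.06 in EC replicate 2, had a peak in 2 of 3 ko and 3 of 3 het lists.

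Of the genes at the 5 strongest member regions, 3 had less RNA in EC than in CM and 2 had slightly more. Desi2 had 44.8 and 44.7 CPM in EC, against 78.2, 74.1 and 82.4 CPM in CM (-0.80 ± 0.08, adjusted p = 3.90e-06, edgeR). Hspa2 had 4.61 and 3.98 CPM in EC, against 40.9, 39.8 and 35.8 CPM in CM (-3.17 ± 0.13, adjusted p = 2.90e-09, edgeR), although its region was the second strongest of all members. Osbpl2 had 29.4 and 26.3 CPM in EC, against 45.0, 50.2 and 45.2 CPM in CM. Mtmr4 had 70.8 and 71.6 CPM in EC, against 55.5, 54.8 and 64.9 CPM in CM, with an adjusted p of 0.0127 by edgeR, a call lost without either EC library or without CM replicate 2 (adjusted p of 0.0581 to 0.0726). Mxd4 had 33.6 and 25.04 CPM in EC, against 22.5, 24.0 and 24.95 CPM in CM, so the cell types nearly met, and its adjusted p of 0.0439 by edgeR was lost without EC replicate 1 (0.641), CM replicate 1 (0.1003) or CM replicate 2 (0.0955), with no count filter (0.0689) and with DESeq2 (0.0678).

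Families of genes that pattern the embryo had more member promoters than promoters with GATA4, and differed in how many of those genes were silent. These families were picked by their names after their values were seen, and their counts are a description. Of all genes with a start, 26.9% had a member promoter alone and 33.6% one with GATA4 alone. In the weakest bin by fold, 80.6% of open promoters were members, and the families were not matched for fold. Of 39 Hox genes, which set position along the body, 19 had a member promoter and 1, Hoxd8, one with GATA4. Of the 19 with a member promoter, 18 had under 1 CPM in EC, and 8 had a region with a peak in all 6 ko and het lists. Tbx genes had 11 and 1 of 16, Pax genes 5 and 0 of 9, Lhx genes 5 and 1 of 8, Wnt genes 10 and 2 of 19 and Fgf genes 13 and 3 of 22, without and with GATA4. Under 1 CPM in EC were 6 of the 11 Tbx genes with a member promoter, 5 of 5 Pax, 5 of 5 Lhx, 3 of 10 Wnt and 11 of 13 Fgf genes. Of all 6478 genes with a member promoter alone, 18.6% had under 0.1 CPM in EC and a further 16.6% had 0.1 to 1 CPM. Members of the T-box group ran from 0 CPM in EC for the lowest to 465 CPM on average for Tbx20. Wnt4, a ligand of endocardium, had 60.0 and 65.5 CPM in EC, against 1.83, 1.74 and 1.504 CPM in CM (5.21 ± 0.12, adjusted p = 6.71e-11, edgeR).

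Matrix and membrane families were also more frequent without GATA4, again with no match for fold. Collagen genes had 26 and 6 of 44 without and with GATA4, and of the 25 with a member promoter that were tested, 14 were higher in EC and 7 lower. Potassium channel genes had 46 and 21 of 98 and ionotropic glutamate receptor genes 12 and 4 of 20. Of the 47 potassium channel genes with a member promoter, 1 of them with both kinds, 32 had under 1 CPM in EC. Over all genes with a member promoter alone, 18.6% had under 0.1 CPM in EC and a further 16.6% had 0.1 to 1 CPM. Zinc-finger Zfp genes went the other way, with 128 and 200 of 366, as did Rab genes with 28 and 40 of 72 and complex I genes with 12 and 32 of 45. Families were taken by gene name, so Rab3gap1 and Rab10os, which are not Rab GTPases, and Kcnd3os, which is not a channel, are among them. The complex I count likewise holds assembly factors such as Ndufaf2. All 12 complex I genes with a member promoter were lower in EC (median log2 fold change -1.86). Solute carriers were even, at 129 and 126 of 373. Olfactory receptor genes, which serve smell, had only 4 and 2 of 1123, and microRNA genes 115 and 103 of 1167.

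Promoter letters were read from RefSeq for protein-coding genes on the 15 chromosomes where at least 80% of such genes at open promoters could be matched, a limit set after the match was seen. This left 3423 promoters without GATA4 (82.8% of 4134 genes), 4490 with GATA4 and 3808 with no open region at the start. GC content had a median of 61.0% without GATA4, against 61.7% with GATA4 and 44.7% with no open region. The ratio of observed to expected CpG, which is low where CpG has been lost to methylation over evolution, had a median of 0.701 without GATA4, against 0.802 with GATA4 and 0.163 with no open region. Ratios under 0.4 were found for 17.97% without GATA4, against 7.48% and 88.5%. Among genes with at least 10 CPM in EC the medians were 0.789 without GATA4 and 0.826 with GATA4, and among genes under 1 CPM 0.560 and 0.639. Members are therefore mostly CpG-rich promoters, with more CpG-poor ones among the silent genes.

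The letters AGATAA, a common GATA match, were in 4.76% of promoters without GATA4 on either strand, against 7.42% with GATA4, 18.7% with no open region and 10.3% of all 12119. Among genes under 1 CPM in EC the shares were 6.89% without GATA4 and 16.0% with GATA4, and among genes with at least 10 CPM 3.46% and 6.46%. The long ETS match CCGGAAGT was in 5.76% without GATA4, against 9.76% with GATA4 and 5.58% of all. The short ETS core GGAAG, which lies within the long one, was in 73.9%, against 76.4% with GATA4 and 71.4% of all. The GC box GGGCGG was in 64.2%, against 68.0% and 48.1% of all, and the NF-Y box CCAAT in 38.9%, against 37.8% and 38.9%. The TATA letters TATAAA were in 8.33%, against 5.90% and 13.5%, and the AP-1 letters TGANTCA in 5.20%, against 3.70% and 7.30%. Among the other letters searched, GCATGCGC (NRF1) was in 4.70% against 5.88% with GATA4, TGACGTCA (CRE) in 2.69% against 3.85%, AAGATGG (YY1) in 5.41% against 7.80%, CACGTG in 10.3% against 10.2% and ACAAAG (SOX) in 12.4% against 12.9%. All letters were searched on both strands, and shares follow base composition as well as any factor.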

How the data were processed

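Counts per gene were deposited by the authors as read counts made with featureCounts 1.6.3 on mm10, per the file headers. Peaks were deposited as 1 list per library, and the deposited columns give each peak a fold over background, its −log10 p and its −log10 q. Bowtie 1.1.1, Bowtie2 2.2.9, STAR 2.7.3a, MACS2 2.2.4 and deepTools 3.3.1 are named in the submitters' processing notes with no roles, and the sources used here do not give whether peaks were called against a control. Depth of the peak libraries is unknown.

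Counts were fitted on the whole table with edgeR 4.0.16 in R 4.3.3 (quasi-likelihood F test with TMM scaling after filterByExpr, and Benjamini-Hochberg adjustment at 0.05), with all 5 libraries and no covariate. Standard errors were taken as log2 fold change over the square root of F. DESeq2 1.42.0 was an alternative. RPKM was computed from these counts and the table's gene lengths.

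Peaks were handled in Python 3.11.15 (numpy 2.4.6, pandas 2.3.3, scipy 1.17.1, matplotlib 3.10.9). EC peaks sharing at least 1 bp were merged, and the start was the outermost exon end by strand in that table. Left out here were 144 genes placed on several chromosomes or strands and 150 with copies far apart, which left 24127 genes. Coordinates count from 1. In simulated lists all planted regions came back, which checks the code alone. No replicate pair agreed within sampling noise. ATAC of cardiomyocytes (2 samples) was not analysed here.

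The members, lists and named genes were chosen with earlier results of these data known. Named genes were the 3 of each list with the highest EC level, the 5 greatest differences each way among genes of no less than 20 CPM throughout the cell type with more, the 5 strongest regions and those in all libraries of 1 genotype alone. Others named, and the name families, were chosen after their values were seen.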

Additional observations from a re-analysis of the deposited data

How the results depend on the processing

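The 95% binomial interval of the share of open promoters was 45.3% to 47.0% (Clopper-Pearson). It takes regions as independent and covers counting error alone, not the spread between libraries. The main values were 6178 members, 46.2% of open promoters, 78.9% in all ko and 80.9% in all het lists. The median EC level was 1.98 RPKM, with 2039 genes higher and 1925 lower in EC. Asking that at least 0.5 of a peak lie in the region gave 6179 members and keeping genes with copies far apart gave 6180, and the other values moved as little. With −log10 q of at least 5 in all lists the values were 48.3%, 75.4% in het and 3.74 RPKM. With it in the ATAC lists alone they were 42.7%, 72.7% in ko, 73.5% in het and 3.17 RPKM, and in the GATA4 lists alone 51.5% and 2.55 RPKM. With lists of equal length there were 11207 members, 93.5% of open promoters, 93.7% in ko, 93.5% in het, 6.71 RPKM, 4385 higher and 4485 lower. A limit of 0.5 kb gave 45.3% and 2.23 RPKM, and 2 kb gave 48.9%, 72.6% in ko, 74.7% in het and 1.49 RPKM. Without GATA4 within 1 kb the share was 43.9%. Asking for no ko or het peak gave 48.9%, 70.5% in ko, 72.2% in het and 1.602 RPKM, and asking for all 6 gave 40.2%, 100% in ko, 100% in het and 4.13 RPKM. Added after the data were seen, counting GATA4 only with peaks in 2 of 6 lists gave 63.5%, 85.2% in het, 3.50 RPKM and 2930 lower. Leaving out X gave 45.2% and 1.85 RPKM, and asking that the start lie in the region gave 43.9%, 84.4% in ko, 86.0% in het and 2.71 RPKM. Leaving out each peak library in turn gave 6110 to 7258 members, 45.9% to 54.3%, 75.7% to 87.1% in ko, 77.5% to 87.5% in het, 1.88 to 2.71 RPKM, 2026 to 2424 higher and 1914 to 2438 lower, the greatest shift in number without Tnnt2-Cre replicate 3.

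The median EC level of genes without GATA4 was 23.0% of that with GATA4 in RPKM and 20.8% in CPM, 23.0% to 23.6% with an RNA library left out, and 45.0%, 35.7%, 74.2%, 87.2% and 72.9% within 5 bins of fold, a split added after the data were seen. Genes higher and lower in EC numbered 2039 and 1922 with RLE scaling, 2057 and 1897 with upper quartile, 2027 and 2017 with no filter, 1976 and 1915 with DESeq2, 1035 and 892 against a 2-fold threshold, and 1888 to 1997 and 1773 to 1921 with an RNA library left out. Deviations from the cell type's mean correlated at -0.0196 and -0.0088 between EC and CM libraries of numbers 1 and 2. With 2 EC libraries these deviations mirror each other, so they cannot decide whether replicate numbers pair the samples. The fit with a replicate block gave 1905 genes higher and 1844 lower in EC. Of 1067 pairs of a named gene and an alternative, 1005 kept their call. Of the 97 named genes with a test, 55 kept theirs under every alternative that tested them, and 37 lost it against the 2-fold threshold. Psmd1, uncalled throughout, reversed to a log2 fold change of 0.0125 with upper quartile scaling and to 0.014, 0.00297 and 0.0257 without EC 2, CM 1 and CM 2. Its values without a library ran from -0.0435 to 0.0257. Snrpf (-0.0708 to 0.168 without a library) and Nars (-0.0387 to 0.120) reversed without EC 2, also uncalled.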
